A study of Mus musculus with 4 samples.

Results

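Growth factor receptors of the CSF-1, GM-CSF and FLT3 systems, with their ligands and the Axl and Gas6 pair, were followed in sorted mouse Langerhans cells after injection of TCDD. The 10 genes were Csf1r, Csf2ra, Csf2rb, Csf2rb2, Csf3r, Flt3, Csf1, Csf2, Axl and Gas6. Every probe set (a group of short array probes for 1 transcript) that the platform annotation assigned to exactly 1 of these symbols was taken, which gave 17 of the 22626 probe sets on the array that are not Affymetrix controls, with all 10 genes represented. A further probe set that carried the symbols of both Csf2rb and Csf2rb2 was left out.

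Langerhans cells are the dendritic cells of the epidermis. They depend on the CSF-1 receptor, a tyrosine kinase that binds CSF-1 and interleukin 34, the latter made largely by keratinocytes. GM-CSF, encoded by Csf2, acts through the alpha chain Csf2ra and the common beta chain Csf2rb, which signal through Jak2 and Stat5. Mice also have Csf2rb2, a close copy of Csf2rb that serves interleukin 3. FLT3 and the G-CSF receptor Csf3r mark dendritic cell and neutrophil lineages, and Axl with its ligand Gas6 takes part in the clearance of dying cells.

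Of the 4 arrays, 2 were controls and 2 came from mice given 10 µg TCDD (the dioxin 2,3,7,8-tetrachlorodibenzo-p-dioxin, which binds and activates AhR, the aryl hydrocarbon receptor). Treatment was an injection of 100 µl into the peritoneum, for control 1 of DMSO in olive oil, and cells were isolated 24 h later and sorted to a stated purity of 95%. Control 1 and TCDD 1 have no skin site in their labels, whereas control 2 and TCDD 2 are from back skin. These pairs are called preparations below. No label says that the arrays of a pair share an experiment, or that control 1 and TCDD 1 share a site. The labels of the controls also give different experiments, so site and experiment cannot be told apart, and the sources used here give no strain, age or sex and no number of mice behind an array. The title and description of control 2 name a control but its treatment text names TCDD. Title and description were followed here, and differences without that array are given beside those with it.

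Control 1 stood apart in RNA quality: its ratio of 3′ to 5′ signal was 49.7 for the actin control probe sets, against 3.48 to 7.71 on the other arrays, and 106.8 against 9.55 to 15.9 for Gapdh. Median signals ran from 164.9 to 188.2 (arbitrary units). The label of Langerhans cells was checked with 7 markers, of which Epcam, an adhesion molecule, read 7541 to 10032 and Cd74, the class II invariant chain, 3406 to 6750. Cd207, which encodes langerin, spanned 2120 to 7211, Ptprc 2180 to 3677 and H2-Ab1 975.7 to 1523.2. Cdh1 and Itgax were dim, at 137.8 to 206.6 and 115.3 to 230.7, in the range of the markers of other cell types below. Among other cell types, the brightest keratinocyte markers were Dsp (159.9 to 464.1) and Krt14 (166.1 to 249.5), and the brightest T cell markers were Cd3e (112.7 to 471.3) and Cd3g (71 to 471.4). Adgre1 (874.2 to 1076) and Cd68 (400.5 to 1148), which Langerhans cells also express, led the macrophage list. Ltf and Ngp stayed between 78.4 and 304.8, Cpa3 and Tpsb2 between 78.5 and 206.1, Col1a2 and Col1a1 between 124 and 422.1, and Pmel and Dct between 121.6 and 283.4, as the brightest markers of neutrophils, mast cells, fibroblasts and melanocytes in that order.

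The 250 bases before the start of a gene were available from RefSeq (GRCm38.p6) for 8 members, all but Csf1r and Csf2rb. Because TCDD acts through AhR, and the factor PU.1 (Spi1) controls several myeloid receptor genes, both core motifs were searched on both strands. The AhR core GCGTG was found in 0 of the 8 windows and in 28.2% of 32851 such windows over all genes. The PU.1 core GAGGAA was found in 4 of the 8 (Csf2ra, Csf2rb2, Csf3r and Axl) and in 23.3% of all. Csf2rb2 and Flt3 are shown, a receptor with a match and a receptor without one, both with clear signals on all 4 arrays. The PU.1 letters, on the opposite strand, are in capitals and begin 167 bases before the start of Csf2rb2. These matches describe letters and not bound sites.
Csf2rb2 (chr15:78305722-78305971, minus strand): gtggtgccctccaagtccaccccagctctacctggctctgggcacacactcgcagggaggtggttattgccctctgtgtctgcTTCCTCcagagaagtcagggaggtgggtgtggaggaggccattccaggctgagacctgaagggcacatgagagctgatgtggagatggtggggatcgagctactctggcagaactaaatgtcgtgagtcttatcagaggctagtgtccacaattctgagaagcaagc
Flt3 (chr5:147400490-147400739, minus strand): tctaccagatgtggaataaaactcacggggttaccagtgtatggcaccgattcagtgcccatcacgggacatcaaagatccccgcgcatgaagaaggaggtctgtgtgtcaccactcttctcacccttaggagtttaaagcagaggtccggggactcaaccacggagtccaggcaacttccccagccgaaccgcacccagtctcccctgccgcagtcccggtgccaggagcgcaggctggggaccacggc

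The receptors for CSF-1 and GM-CSF and FLT3 gave clear signals on every array, and no member differed between TCDD and control by the test over all probe sets. Of the ligands, Csf2 read 9.7 or below. The tested probe sets of Csf1 and Gas6 lay between the 39.3rd and 62.0th percentile of their arrays. A probe set was tested when its mean log2 signal reached the 40th percentile, a geometric mean of 115. Of the 17 member probe sets 12 passed this filter, covering 9 genes, and 5 lay below it. With limma's moderated test, treatment and preparation as terms and Benjamini-Hochberg adjustment over 13576 probe sets, 0 of the 12 passed 0.05 for TCDD, where 0% of all tested probe sets did (smallest adjusted p = 0.9999). Without adjustment, 199 (1.47%) of all tested probe sets and 0 of the 12 members had p under 0.05 in limma. Evenly spread p-values would put a share of 0.05 under that threshold, so this fit called few probe sets of any kind. The 0 among members therefore says little about them. Differences are given below as log2 TCDD minus control with the standard error of that fit (n = 2 per group). In bulk cells, fewer cells of a type and less RNA per cell cannot be told apart.

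**Figure D1:**
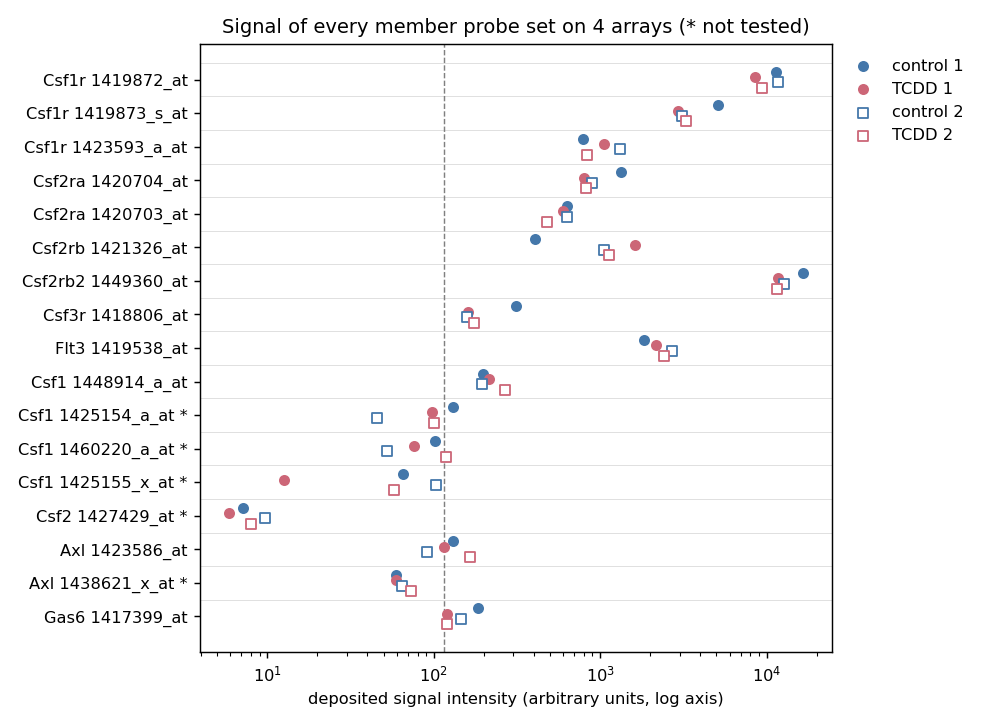
Deposited signal (log axis) of the 17 member probe sets, 1 row each, with filled circles for control 1 (blue) and TCDD 1 (red), open squares for control 2 and TCDD 2 and a dashed line at the filter value of 115. Csf2rb2 and the brightest Csf1r probe set lie at 8468.6 or above on all 4 arrays, Csf2 lies at 9.7 or below, and control 1 is far to the left for Csf2rb.

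Csf1r, the receptor that maintains Langerhans cells, has 3 probe sets. The brightest, 1419872_at, read 11347.5 and 11698.8 in the control arrays and 8468.6 and 9376 in the TCDD arrays, replicate 1 first. Both TCDD arrays were below both controls, a difference of -0.37 ± 0.29 with a 95% interval from -1.03 to 0.29. Within preparations the log2 ratio of TCDD to control was -0.42 with no site named and -0.32 for back skin. It was -0.35 without control 2 and -0.39 without control 1, in fits that left out the preparation term, since 3 arrays cannot hold both terms; the same holds for every value given without an array. Epcam had the same order of arrays, with 8717 and 10032.1 in the controls and 7540.8 and 8362.1 with TCDD. Both TCDD arrays lay below both controls for 2 of the 7 Langerhans cell markers, Epcam and Itgax, beside 14.1% of all genes. They lay above them for 0, beside 11.4%. The part of cell content in the Csf1r value was not tested. Probe set 1419872_at was among the steadier ones: its range over the arrays, 0.47 log2 units, stood at the 28.2nd percentile of all tested.

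The other Csf1r probe sets did not repeat that order. Probe set 1419873_s_at read 5088.4 on control 1 and between 2933.1 and 3301 on the rest, so control 1 alone was high. Its difference of -0.36 ± 0.36 came from 1 preparation, with ratios of -0.79 and 0.09, and was -3.8e-05 without control 1 and -0.71 without control 2. Probe set 1423593_a_at was instead lowest on control 1 at 790.2, followed by 830.2 on TCDD 2, 1049.5 on TCDD 1 and 1314.7 on control 2. Its ratios ran in opposite directions, 0.41 and -0.66, and the difference was -0.13 ± 0.39, with a turn to 0.24 without control 2. Against the mean of the other 3 arrays, control 1 stood 0.71 log2 units higher for 1419873_s_at and 0.41 lower for 1423593_a_at. That array also had the highest actin and Gapdh ratios, and their part in this disagreement was not tested. The order of the arrays for 1423593_a_at was also that of the summed signal of the 7 Langerhans cell markers (19233.3 and 28410.9 in the controls, 22555.4 and 20664.2 with TCDD). Singly, only Cd207 of that list had this order, and Ptprc was highest on control 1. The summed signal of the 7 macrophage markers had it too (2252.5 and 3383.8, then 2981.1 and 2366.9), though singly only Cd14 and Cd68 did. The part of these cells was not tested either.

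Csf2ra, the ligand-binding alpha chain of the GM-CSF receptor, read lower after TCDD in both preparations by both of its probe sets, with 95% intervals that included 0. Probe set 1420704_at went from 1342 to 797.3 and, in back skin, from 896.7 to 821.2, a difference of -0.44 ± 0.36. Much of it lay in control 1, which was 0.68 above the mean of the other arrays; without that array the difference was -0.15, and without control 2 it was -0.73. Probe set 1420703_at had 630.4 and 629.6 as its control signals, 596.7 on TCDD 1 and 482.1 on TCDD 2 (-0.23 ± 0.34). Here TCDD 2 was the low array. The value was -0.23 without either control, and its range of 0.39 was the smallest among the tested members.

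Csf2rb, the beta chain through which GM-CSF signals, had the widest range over the arrays among the 12 tested member probe sets. Its probe set 1421326_at read 408.8 on control 1, 1060.5 on control 2, 1128.8 on TCDD 2 and 1627.7 on TCDD 1. Control 1 alone was low, and the remaining arrays lay between 1060.5 and 1627.7. Both TCDD arrays exceeded both controls, with a difference of 1.04 ± 0.47 and a 95% interval from -0.03 to 2.11 (limma, unadjusted p = 0.0553, adjusted p = 0.9999). Within preparations the ratio was 1.99 with no site named but 0.09 for back skin. Its range over the arrays, 1.99 log2 units, stood at the 97.3rd percentile of all tested probe sets, whose median was 0.65.

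The Csf2rb value depended on which control was kept. Without control 2 it was 1.73, past the threshold (limma, adjusted p = 0.0053), in a fit that called 2.1% of all probe sets and sets both TCDD arrays against control 1 alone. Without control 1 it was 0.35 (limma, adjusted p = 0.9983), and without TCDD 1 or TCDD 2 it was 0.78 or 1.31. In those fits the lone array of a group is assumed to vary like the others. Control 1 minus the mean of the other arrays was -1.61 for Csf2rb, where the 5th and 95th percentiles of all tested probe sets were -1.03 and 0.71. TCDD 1 was also unusual, at 1.05 above the mean of the other arrays, where the 95th percentile of all tested probe sets was 0.67. The raised 3′ to 5′ ratios belong to control 1, and their part in the Csf2rb value was not tested.

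Csf2rb2, the copy of the beta chain used by interleukin 3, moved differently. Probe set 1449360_at gave 16582.7 and 12768.9 as control signals and 11780.7 and 11535.6 after TCDD. Control 1 was the highest array and the others lay close together, the reverse of Csf2rb. The difference was -0.32 ± 0.29, from -0.97 to 0.33 at 95%, with ratios of -0.49 and -0.15, and -0.51 without control 2 or -0.13 without control 1. Csf2rb and Csf2rb2 are near-identical genes, and 1 probe set carries both symbols, so their separate signals are uncertain to the extent that probes bind both, which was not tested.

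**Figure D2:**
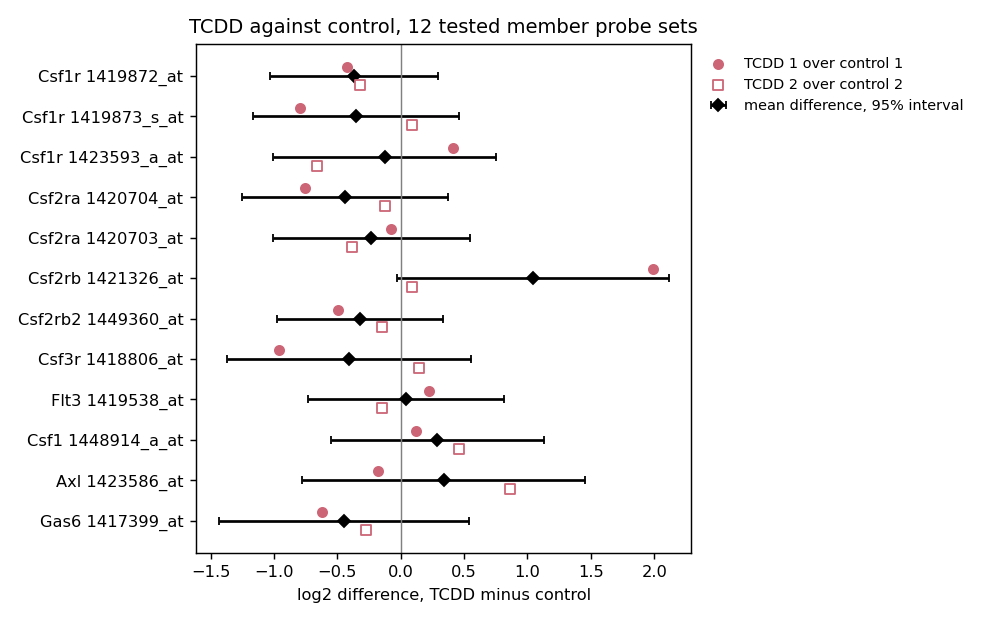
Log2 difference of TCDD and control for the 12 tested member probe sets: black diamonds with bars give the fitted difference and its 95% interval, red circles the ratio with no site named and red squares the ratio in back skin. All 12 intervals include 0, and Csf2rb, at 1.04, has its 2 ratios farthest apart, at 1.99 and 0.09.

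Flt3, the receptor for FLT3 ligand on dendritic cells and their precursors, gave 1847.2 on control 1, 2160.3 on TCDD 1, 2433.8 on TCDD 2 and 2694 on control 2. The controls were the lowest and the highest array, and TCDD lay between them (0.04 ± 0.34, from -0.73 to 0.81 at 95%). Its ratios were 0.23 and -0.15, and the sign turned to -0.23 without control 1 and was 0.31 without control 2. Both back skin arrays were above both others, by 0.36 ± 0.34 on average (0.28 without control 2).

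Csf3r, the G-CSF receptor of neutrophils, stood near the filter on 3 arrays, with 158.9 on control 2, 160.5 on TCDD 1 and 175.8 on TCDD 2, and reached 312 on control 1. The groups overlapped, and the difference was -0.41 ± 0.42. It was -0.89 without control 2 and 0.08 without control 1. The summed signal of the 6 neutrophil markers on the array was 633.3 for control 1 and 615.7 to 711.9 elsewhere. Of those 6, S100a8 read 14.2 to 26.4, and no marker was listed at 0.

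Of the ligands, Csf1 encodes CSF-1 and had 4 probe sets, of which 1 was tested. Probe set 1448914_a_at gave 215.4 and 267 with TCDD against control signals of 198.5 and 193.9. Both TCDD arrays were above both controls, though the difference of 0.29 ± 0.37 was smaller than its error (0.27 without control 2, 0.31 without control 1). The remaining probe sets lay under the filter and disagreed: 1425154_a_at read 45.8 to 131.3 and 1460220_a_at 52.8 to 119.2, each lowest on control 2. Probe set 1425155_x_at read 12.7 on TCDD 1, under the 20th percentile of that array's signals (39.3), and 57.5 to 103.8 on the rest. Csf2, which encodes GM-CSF, had control signals of 7.2 and 9.7 and TCDD signals of 5.9 and 8. These signals lay between the 2.16th and 4.42nd percentile of their arrays, and no change can be read from them.

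Axl, a receptor tyrosine kinase of the TAM family, was tested by 1423586_at. It went from 131.4 to 115.8 with no site named and from 91.2 to 165.8 in back skin. The groups overlapped (0.34 ± 0.49), and ratios were -0.18 and 0.86. Without control 2 the difference was 0.08, and without control 1 it was 0.60. The other Axl probe set, 1438621_x_at, lay under the filter at 59.6 to 73. Gas6, the ligand that bridges Axl to dying cells, had 184.9 and 146.2 as control signals and 120.4 and 120.8 after TCDD. Both TCDD arrays were lower, by -0.45 ± 0.43 (limma, adjusted p = 0.9999), with -0.62 without control 2 and -0.28 without control 1.

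Counted together, both TCDD arrays lay below both controls in 5 of the 12 tested member probe sets, where 13.2% of all tested probe sets did. They lay above them in 2 of the 12, beside 12.4% overall. The 5 are 1 of Csf1r, both of Csf2ra, Csf2rb2 and Gas6, and the 2 are Csf2rb and Csf1. An exact permutation test of 2 arrays against 2 cannot go below p = 0.333, and the count has no test of its own. The members' median difference was -0.28, that of all tested probe sets -0.01. The 12 probe sets cover 9 genes, so Csf1r and Csf2ra enter these counts and medians more than once. Every tested probe set of those genes had a negative difference. By preparation, 8 of 12 were lower after TCDD with no site named (median ratio -0.30, with 0.03 over all tested), where 47.1% of all tested probe sets were lower. In back skin 7 of 12 were lower (median -0.14, with -0.06 over all tested), beside 54.9% of all tested. Without control 2 both TCDD arrays lay below control 1 in 7 of 12, beside 34.1% of all tested, and above it in 4, beside 36.9%. The differences then split into 7 lower and 5 higher, and without control 1 it was 8 lower and 4 higher.

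**Figure D3:**
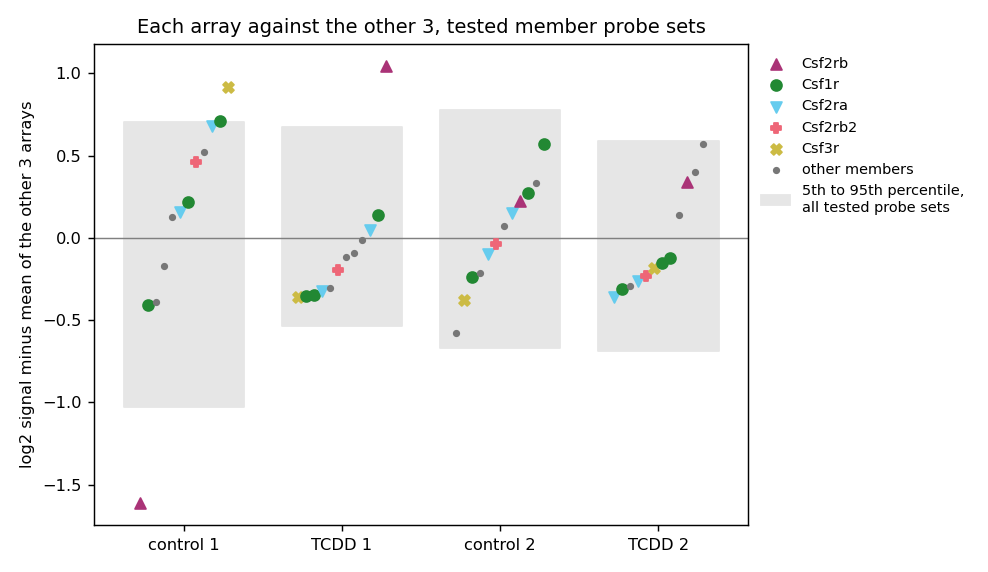
Log2 signal of each tested member probe set on 1 array minus its mean on the other 3, by array; grey bands run from the 5th to the 95th percentile of all 13576 tested probe sets. On control 1, Csf2rb lies at -1.61, below the band, Csf3r at 0.92 lies above it, and Csf1r 1419873_s_at at 0.710 lies just above its edge of 0.705. On TCDD 1, Csf2rb at 1.05 lies above the band.

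Control 1 was the highest array for 6 of the 12 tested member probe sets and the lowest for 3, while over all tested probe sets it was highest in 27.6% and lowest in 31.7%. The 6 were Csf1r 1419873_s_at, both Csf2ra probe sets, Csf2rb2, Csf3r and Gas6. Leaving it out moved the TCDD difference from -0.44 to -0.15 for Csf2ra 1420704_at, from -0.41 to 0.08 for Csf3r and from -0.32 to -0.13 for Csf2rb2. For Csf1r 1419872_at it went from -0.37 to -0.39.

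The arrays from back skin were also set against those with no site named, in the same fit. Of the 12 tested members 0 passed 0.05, where 0% of all tested probe sets did (limma, smallest adjusted p = 0.9994), and the members' smallest unadjusted p in limma was 0.319. Flt3 was the only tested member probe set with both back skin arrays higher (16.1% of all tested), and 0 had both lower (15.9%). Csf1r 1419872_at differed by 0.10 ± 0.29, Csf2rb by 0.42 ± 0.47 and Csf2rb2 by -0.20 ± 0.29. Without control 2 these became -0.06, 0.47 and -0.28, and 3 of the 12 members changed sign. For Csf2rb the value rested on the controls, with 1.38 for control 2 over control 1 and -0.53 for TCDD 2 over TCDD 1. Csf3r differed by -0.42 ± 0.42, of which the controls gave -0.97 and the TCDD arrays 0.13.

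The wider pathway was described with 6 lists of 62 genes in all, each gene by its brightest probe set with 1 symbol. Of these genes 54 had such a probe set and 41 passed the filter. In limma's fit 0 of the 41 passed 0.05 in either direction for TCDD, and 0 for back skin. Both TCDD arrays lay above both controls in 8 of 41 and below in 3, beside 11.4% and 14.1% of 8413 genes treated the same way. The median difference was 0.04, with -0.03 over all genes. Without control 2 both TCDD arrays lay above control 1 in 16 of 41 and below it in 13, beside 34% and 37% of all genes, the median was 0.02, and 9 of 41 changed sign. Both back skin arrays were higher in 8 of 41 and lower in 4, beside 16.6% in each direction, and without control 2 the back skin difference changed sign in 8 of 41.

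Few of the other ligands and related receptors were measured. Of 6 ligands on the array only Kitl, which encodes stem cell factor, passed the filter, at 225.5 to 312.3 (-0.23 ± 0.35). Another tested Kitl probe set differed by 0.09. Il3 read 9.7 to 12.4. Il34, the second ligand of the CSF-1 receptor, lay under the filter at 17.4 to 22.7 on 3 arrays and read 83.5 on TCDD 2. Among 7 receptors, 3 were tested. Kit, the receptor of stem cell factor, went from 381.1 to 281 and, in back skin, from 205.4 to 124 (-0.58 ± 0.36), and both back skin arrays were lower (-1.04 ± 0.36; limma, adjusted p = 0.9994). A dimmer Kit probe set under the filter went the other way, from 24.3 to 59.3 and from 24.7 to 50.6. Il3ra, the interleukin 3 receptor alpha chain, differed by -0.62 ± 0.44 and was higher in back skin by 0.66 ± 0.44. Mertk, a relative of Axl, read 119.2 to 143.6 and differed by -0.23 ± 0.44. It was the 1 tested receptor of this list with both TCDD arrays below both controls, beside 14.1% of all genes. Without control 2 the TCDD differences were -0.18 for Kitl, -1.03 for Kit, -0.43 for Il3ra and -0.25 for Mertk. Those of back skin were then -1.40 for Kit and 0.49 for Il3ra. Kit is also made by mast cells and melanocytes, and the summed signal of the 5 mast cell markers was lowest on control 1 (490.7), where Kit was highest, and 573.9 to 719.2 elsewhere. That of 3 melanocyte markers was 615.8 on control 2 and 405.4 to 424.4 elsewhere. Their part was not tested.

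Of 15 tested signalling genes next to the receptors, 2 had both TCDD arrays above both controls and 1 had both below. Over all genes the shares were 11.4% and 14.1%. Pik3r1, a regulatory subunit of phosphoinositide 3-kinase, had TCDD signals of 4734.8 and 4862.7 against control signals of 2547.3 and 4228.1 (0.55 ± 0.34). Its other tested probe sets had ratios of opposite sign in the preparations. Shc1, an adaptor of tyrosine kinase receptors, differed by 0.47 ± 0.42, with 147.2 on control 2 and 279.1 to 330 on the rest. Syk, a kinase downstream of immune receptors, differed by -0.45 ± 0.42, with 753.4 on control 1 and 333.8 to 420.1 elsewhere. The other tested Syk probe set differed by -0.09 and was highest on TCDD 2, at 217.5. Jak2, named after its values were seen as the kinase that the GM-CSF receptor uses, read 9648.5 to 14788.9 and differed by -0.03 ± 0.32. Stat5b, a transcription factor downstream of it, was lower in back skin by its brightest probe set (-0.47 ± 0.35), as was Shc1 on average (-0.45 ± 0.42). Without control 2 the TCDD differences were 0.91 for Pik3r1, -0.11 for Shc1, -1.01 for Syk and -0.34 for Jak2, so Shc1 changed sign, and those of back skin were -0.26 for Stat5b and 0.13 for Shc1.

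Of 9 tested negative regulators of these receptors, 1 had both TCDD arrays above both controls and 1 had both below. Among all genes 11.4% and 14.1% did. Cbl, the ubiquitin ligase that removes active CSF-1 receptor, read 326.1 on control 1 and 833.8 to 1141.2 on the others (0.60 ± 0.49), with ratios of 1.66 and -0.45. Of the 41 pathway genes it was the only one past 0.05 in a fit without 1 array, as Csf2rb was among the members, again without control 2 and so against control 1 alone (1.51; limma, adjusted p = 0.013), and its other tested probe set had the same signs. Cish, a Stat5-induced inhibitor, went from 917.8 to 1019.4 and, in back skin, from 833.1 to 1587.8 (0.54 ± 0.37). Socs2 differed by 0.31 ± 0.37, with 7555.1 on TCDD 2 as its highest signal. Socs3, another inhibitor of cytokine receptors, went from 2107.1 to 560.9 and, in back skin, from 722.9 to 2294.4 (-0.12 ± 0.70), and was picked out with its values known. Ptpn6, a phosphatase that dampens the receptors, was lower in back skin (-0.69 ± 0.36), but its other probe set was highest on TCDD 2. Without control 2 the TCDD differences were 0.47 for Cish, 0.02 for Socs2 and -0.89 for Socs3, and that of back skin was -0.83 for Ptpn6.

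Of 9 tested growth and survival targets 3 had both TCDD arrays above both controls and 0 had both below, beside 11.4% and 14.1% of all genes. Id1, an inhibitor of differentiation factors, had control signals of 153.4 and 153.1 against 218.1 and 199.2 (0.44 ± 0.39). Bcl2l1, which protects cells from apoptosis, had control signals of 639 and 685.2 against 933.8 and 818.7 (0.40 ± 0.34), and Ccnd1, cyclin D1, differed by 0.24 ± 0.34. Egr1 was lower in back skin by -0.55 ± 0.34 and Pim1, a kinase induced by Stat5, was higher by 0.48 ± 0.31 by its brightest probe set. The other tested Pim1 probe set overlapped, with 356.4 on TCDD 2 between 234.4 on control 1 and 492.1 on TCDD 1. Of 4 tested transcription factors, Spi1, which encodes PU.1, gave 473.4 and 728.4 with TCDD against 451.7 and 453.5 without (0.38 ± 0.35). Runx1 differed by 0.46 ± 0.36 by its brightest probe set and by -0.59 by another, so its direction is not settled. Irf8 differed by -0.17 ± 0.35 and by 0.03 by its second probe set. For back skin, Spi1 and Irf8 differed by 0.31 ± 0.35 and 0.13 ± 0.35. Without control 2 the TCDD differences were 0.44 for Id1, 0.45 for Bcl2l1, 0.10 for Ccnd1, 0.38 for Spi1, 0.63 for Runx1 and -0.36 for Irf8. Those of back skin were then -0.36 for Egr1, 0.40 for Pim1, 0.66 for Spi1 and 0.30 for Irf8.

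**Figure D4:**
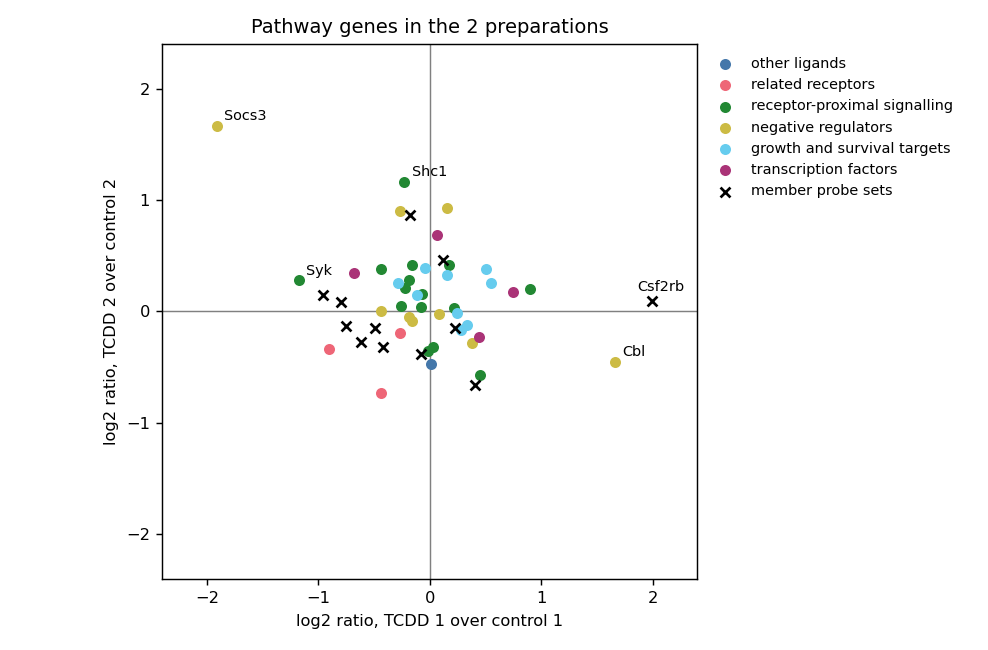
Log2 ratio of TCDD to control with no site named (horizontal) and in back skin (vertical) for the 41 tested pathway genes, coloured by list, and the 12 tested member probe sets (crosses). Csf2rb and Cbl lie far to the right, at 1.99 and 1.66, with vertical values of 0.09 and -0.45, and Socs3 lies alone at the upper left, at -1.91 and 1.67.

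For likeness of pattern, tested probe sets were ranked by the Euclidean distance of their centred log2 signals over the 4 arrays, a description that so few arrays cannot test. The nearest to Csf1r 1419872_at were Nup85 (distance 0.03), Nucks1 (0.03) and Emc3 (0.04). The nearest to Csf2rb were probe sets of Xbp1 (0.09), Malat1 (0.19) and Tpm3 (0.20). Having been chosen for likeness to Csf2rb, all of the latter were lowest on control 1 and highest on TCDD 1. Malat1, a long nuclear RNA, read 588.7 on control 1, 1265.2 on control 2, 1449.4 on TCDD 2 and 2110.7 on TCDD 1.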

How the data were processed

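Each probe set had 1 deposited intensity per array, a linear signal that the authors made with MAS5 and affy per the submitters' processing notes. Their versions and the detection calls were not given in the sources used here. Trimmed by 2% at each end, all 4 intensity columns had a mean between 499.71 and 499.75, so the authors had scaled the arrays alike. Amplification from the 3′ end makes a signal depend on the probes' distance from that end.

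Samples were grouped by title and description. No further normalization was made. After log2, the 13576 probe sets at or above the 40th percentile of mean signal (6.85) were fitted with limma 3.58.1 (R 4.3.3), using additive treatment and preparation terms, a variance trend and Benjamini-Hochberg adjustment. This leaves 1 residual degree of freedom, so the number of arrays limits precision: the median standard error was 0.364. The script was tested on simulated data. The labels do not say that arrays come from separate animals, so the p-values reflect only how these samples vary, which may be technical.

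Of 22626 probe sets, 20380 had 1 symbol, 691 several and 1555 none, and only single symbols were named. Members, lists and tests were chosen with earlier results of these data known. Named were all members, per pathway list up to 3 genes with the largest TCDD and 2 with the largest back skin difference, and the 2 brightest markers per cell type. The settings varied were quantile normalization, centring on medians, the filter (none, or the 60th percentile), a floor or an offset of 50, no variance trend, 1 term left out, and each array left out together with the other term.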

Additional observations from a re-analysis of the deposited data

Results flagged for a closer look

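A few pathway and marker genes moved by at least 2-fold in opposite directions after TCDD in the preparations. The difference between the preparations was not tested, since 4 arrays leave no error for it. Socs3, an inhibitor of cytokine receptor signalling, had log2 ratios of -1.91 (no site named) and 1.67 (back skin) by its brightest probe set. That probe set went from 2107.1 to 560.9 with no site named and from 722.9 to 2294.4 in back skin. Another Socs3 probe set had the same signs (-0.84 and 1.75) and the third was higher in both (0.22 and 1.07). The reverse signs were found for the Langerhans cell marker Cd207 (1.33 and -1.74) and for the T cell markers Cd3g (1.72 and -2.4) and Klrk1 (2.23 and -1.40). No member of the growth factor receptor set moved in this way.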

How the results depend on the processing

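For TCDD minus control, no tested member probe set changed its direction or passed 0.05 under the settings run with all 4 arrays: quantile normalization, median centring, no filter, the stricter filter, the floor, the offset, no variance trend and no replicate block. The stricter filter removed Csf3r, Csf1, Axl and Gas6, which have no value there. The labels carry no replicate numbers that pair arrays, and the preparation served as the block. For back skin, 1 value turned, that of Axl (0.0094 with the offset of 50). Without the filter the smallest adjusted p among the 17 member probe sets was 1 for TCDD in limma.

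Leaving out 1 array, and with it the other term of the fit, which 3 arrays cannot hold, gave between 0 and 285 calls over all probe sets for TCDD and between 0 and 89 for back skin, with 285 without control 2, 12 without control 1 and 89 without TCDD 1. With all 4 arrays, leaving out the other term alone gave 0 calls in either comparison. Among members these fits gave 0 to 1 calls for TCDD, the 1 being Csf2rb without control 2, and 0 for back skin. Signs for TCDD turned in Csf1r 1423593_a_at (-0.49 to 0.24), Csf3r (-0.89 to 0.0801) and Flt3 (-0.23 to 0.31). Signs for back skin turned in 11 probe sets, namely Csf1r 1419872_at (-0.12 to 0.31), 1419873_s_at (-0.67 to 0.13) and 1423593_a_at (-0.13 to 0.53), Csf2ra 1420704_at (-0.65 to 0.11) and 1420703_at (-0.35 to 0.0378), Csf2rb (-0.57 to 1.42), Csf2rb2 (-0.45 to 0.0429), Csf3r (-0.90 to 0.0585), Csf1 (-0.0928 to 0.37), Axl (-0.44 to 0.43) and Gas6 (-0.48 to 0.14). The cause was not tested. Signals near background, as of Csf2 and the dimmer Csf1 and Axl probe sets, carry no readable change.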

Other observations

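Socs2, a feedback inhibitor that Stat5 induces, had a second tested probe set at 2530 on control 1 and at 6640.6 to 7313.5 elsewhere, so control 1 was low there, as it was for Csf2rb and Cbl. Its brightest probe set read 6100 on control 1, within the range of the other arrays. A second tested probe set of Stat5b was likewise lowest on control 1, at 45.2 against 138 to 195.3 elsewhere. The brightest Stat5b probe set was instead highest on control 1, at 1097.7 against 651.1 to 981.8. Over all tested probe sets control 1 was the lowest array in 31.7%.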
